A study of Mus musculus with 9 samples.

Results

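The mouse genes described here are the cell cycle and replication genes, a list of 40 that spans the G1 cyclins and kinases, the DNA replication machinery, the mitotic apparatus and the inhibitors of cyclin-dependent kinases (CDKs). The list was chosen by function, with earlier results of these data known. A gene was measured where a probe set of the array carried its symbol and no other, which held for 38 of the 40, out of 19938 genes measured in the same way. Ccnb1 (cyclin B1) and Cdkn1a (p21) were not analysed here, and the Cdkn1a probe set in the platform table also carries another symbol. The 38 genes fall into 8 G1 cyclins and kinases, 10 replication genes, 18 mitosis genes and 2 CDK inhibitors.

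The cells came from mice heterozygous for a gfp allele of Cxcl12 (Cxcl12+/gfp), a genotype that all 9 arrays share. They are CXCL12-abundant reticular (CAR) cells, stromal cells of the bone marrow, sorted as bright for the CXCL12-GFP reporter and negative for lineage markers. Of the 9 arrays, 5 hold cells after treatment with G-CSF (granulocyte colony-stimulating factor, 250 µg/kg per day) for 5 days, and 4 hold cells after PBS (phosphate-buffered saline) over the same time. Although titled biological replicates, the arrays are not tied to named animals or pools, so a p-value here measures spread between arrays that may in part be technical. The source-name field speaks of pre-B colonies and, for 4 of the 5 G-CSF arrays, of Hspa9+/-, which goes against titles, treatments and protocols, and groups were taken from the titles.

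In a dividing cell, D-type cyclins with Cdk4 and Cdk6, and then E-type cyclins with Cdk2, release E2F transcription factors, which switch on the replication genes. Later, cyclins A and B with Cdk1, the Aurora and Polo kinases and the kinesin motors carry chromosomes through mitosis, under genes switched on by the B-Myb and FoxM1 complexes. The CDK inhibitors hold these kinases back. Reticular stromal cells of adult marrow are known as slowly dividing cells, whereas the erythroid, granulocytic and B cell precursors around them divide fast.

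Levels are log2 RMA intensities, and a change is the G-CSF mean less the PBS mean on that log2 scale, given with the standard error (SE) or 95% interval of the limma fit. Probe sets differ in how brightly they report a transcript, so changes were read within a probe set. Brightness was compared between probe sets to choose the probe set of a gene and to mark dim ones. Because the RNA is that of a bulk sort, a change in the number of dividing cells and a change in RNA per cell cannot be told apart.

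Some arrays stood apart. The first principal component (34.9% of the variance) split the arrays into set 1 (G-CSF replicates 1 to 3, PBS replicates 1 and 2) and set 2 (the other 4). This split was seen in the values and is named by no label. PBS replicate 3 lay farthest out, at 56.5, with the other arrays between -30.3 and 22.5. It had the narrowest spread of log2 values (interquartile range 2.17, against 2.43 to 2.90 in the other arrays). The defining markers of the sorted cells were present, with Cxcl12 at 11.93 to 12.08 in G-CSF arrays and 12.21 to 12.47 in PBS arrays, and Lepr at 11.01 to 11.61 in G-CSF and 11.31 to 11.83 in PBS.

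After 5 days of G-CSF, 1 of the 38 genes passed an adjusted p under 0.05: Kif11, the kinesin motor that pushes spindle poles apart, which was higher in G-CSF. None passed as lower. Over the whole array 353 of 21789 probe sets (1.62%) passed, 162 (0.743%) as higher in G-CSF and 191 as lower. The other 37 genes did not pass, which does not show that their levels were equal. At an unadjusted p under 0.05, 5 of the 38 were reached, all higher in G-CSF (Kif11, Tyms, Bub1, Mcm5 and Cenpe), where 9.22% of all probe sets reached it in either direction and 4.41% as higher. Kif11, Bub1, Mcm5 and Cenpe were dimmer than the median probe set tested, and Tyms was brighter. The changes lay above 0 for 29 of the 38 genes, with a median of 0.18, while over all probe sets 51.3% lay above 0 with a median of 0.01. The 95% interval stayed within 1 log2 unit of 0 on both sides for 35 of the 38, the exceptions being Tyms, Cdk6 and Plk1. The same held for 19789 of all 21789 probe sets, a similar share.

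**Figure D1:**
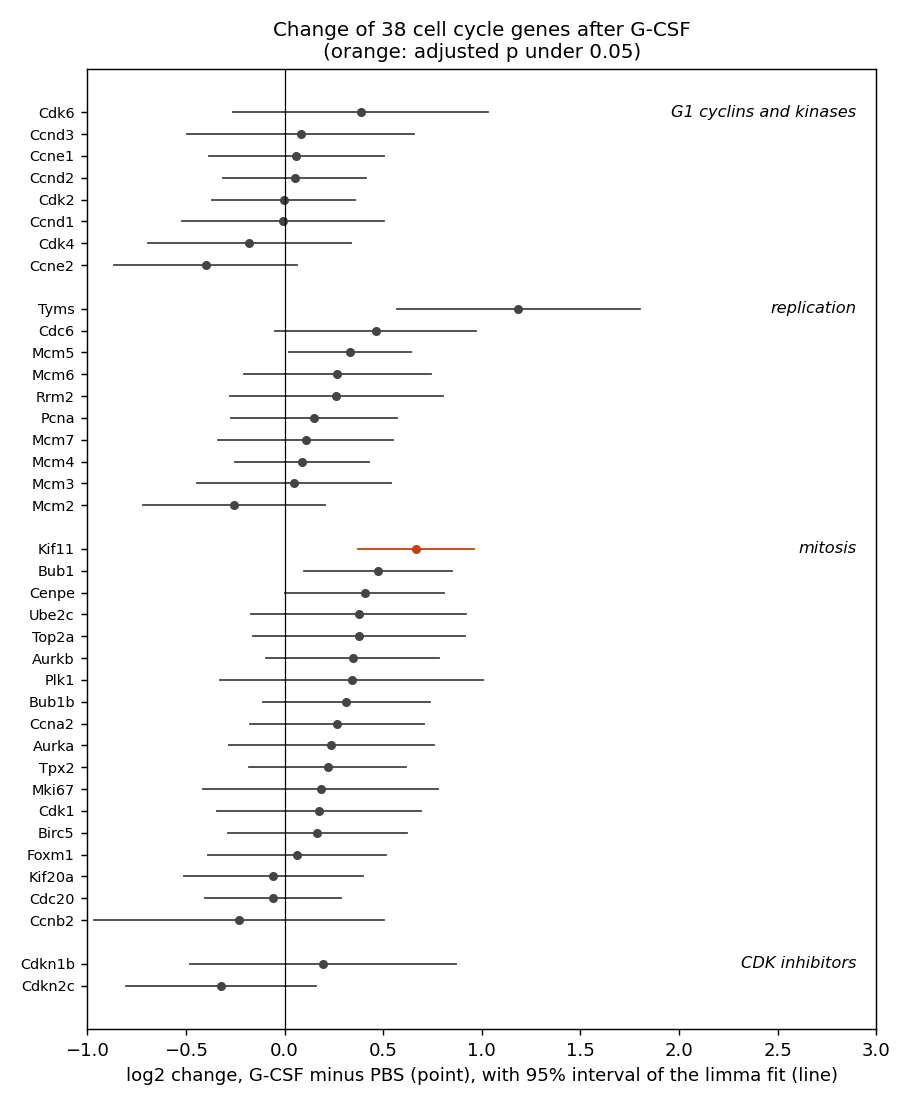
Log2 change of each of the 38 genes (horizontal axis, G-CSF minus PBS, points) with its 95% interval (lines), grouped by role down the page. Kif11 at 0.67 is the gene past the adjusted threshold, and Tyms at 1.19 has the highest change and the interval that reaches farthest, to 1.80.

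Kif11 was at 5.49, 5.59, 5.80, 5.50 and 5.63 in G-CSF replicates 1 to 5, against 5.03, 5.00, 4.74 and 4.97 in PBS replicates 1 to 4. Every G-CSF array lay above every PBS array, which held for 2.18% of all probe sets and for no other member. The reverse order, all G-CSF arrays below, held for 2.46% of all probe sets and for 0 of the 38 members. Kif11 averaged 5.60 ± 0.13 in G-CSF (SD, n = 5) and 4.94 ± 0.14 in PBS (n = 4), a 1.59-fold rise (change 0.67, SE 0.14, 95% interval 0.37 to 0.96, limma adjusted p = 0.0287). The change was 0.61 within set 1 and 0.71 within set 2, neither with a call (adjusted p = 0.225 and 0.329). With the set as a block the limma adjusted p was 0.0144. The sets were drawn from these same values, so that p may be too small. The call rested on all arrays together: leaving out any array gave a change of 0.60 to 0.70 with an adjusted p of 0.0532 to 0.0766. It was also lost with the probe sets without a single symbol included in the adjustment (adjusted p = 0.0691), with G-CSF replicates 4 and 5 averaged (0.0624) and with the replicate number as a block (0.176).

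The mitosis genes next in order of p did not pass. Bub1, a kinase of the spindle checkpoint, was at 4.59, 3.93, 4.45, 4.67 and 4.35 in G-CSF arrays, against 3.90, 3.93, 3.70 and 4.17 in PBS arrays. The G-CSF arrays of Bub1 lay above all PBS arrays except replicate 2, which was level with PBS replicate 2 (change 0.47, 95% interval 0.10 to 0.85, adjusted p = 0.326). Cenpe, a kinesin that moves chromosomes to the spindle equator, was at 4.40, 4.197, 4.53, 4.81 and 5.02 in G-CSF and 4.15, 4.03, 4.50 and 4.07 in PBS. PBS replicate 3 was the array of Cenpe that reached into the G-CSF range (change 0.41, adjusted p = 0.540). Aurkb, the kinase that corrects wrong attachments of chromosomes, was at 5.67, 5.19, 5.80, 5.75 and 6.06 in G-CSF and 5.62, 4.95, 5.20 and 5.62 in PBS. Its groups overlapped through G-CSF replicate 2 (change 0.35, adjusted p = 0.729). Bub1b, the checkpoint protein BubR1, had a change of 0.31, with PBS replicate 3 at 5.11 and the other PBS arrays at 4.49 to 4.56.

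The general markers of dividing cells gave no separation. Mki67, which coats mitotic chromosomes and is the usual marker of cycling cells, was at 6.57, 5.37, 6.39, 6.96 and 6.81 in G-CSF arrays and 6.48, 6.15, 6.06 and 6.27 in PBS arrays. G-CSF replicate 2 was the lowest of the 9 arrays for Mki67 and G-CSF replicate 4 the highest (change 0.18, 95% interval -0.41 to 0.78, adjusted p = 0.958). Top2a, the topoisomerase that untangles sister chromatids, was at 6.20, 5.57, 5.83, 6.79 and 6.56 in G-CSF and 5.82, 6.01, 6.04 and 5.38 in PBS. G-CSF replicates 1, 4 and 5 of Top2a lay above all PBS arrays and the other G-CSF arrays did not (change 0.38, 95% interval -0.16 to 0.91, adjusted p = 0.789). Cdk1, the kinase that drives entry into mitosis, was at 5.49, 4.43, 5.29, 5.39 and 5.41 in G-CSF and 5.46, 4.91, 4.60 and 5.15 in PBS. G-CSF replicate 2 was again the lowest, and the other G-CSF arrays lay between 5.29 and 5.49 (change 0.17, adjusted p = 0.953).

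**Figure D2:**
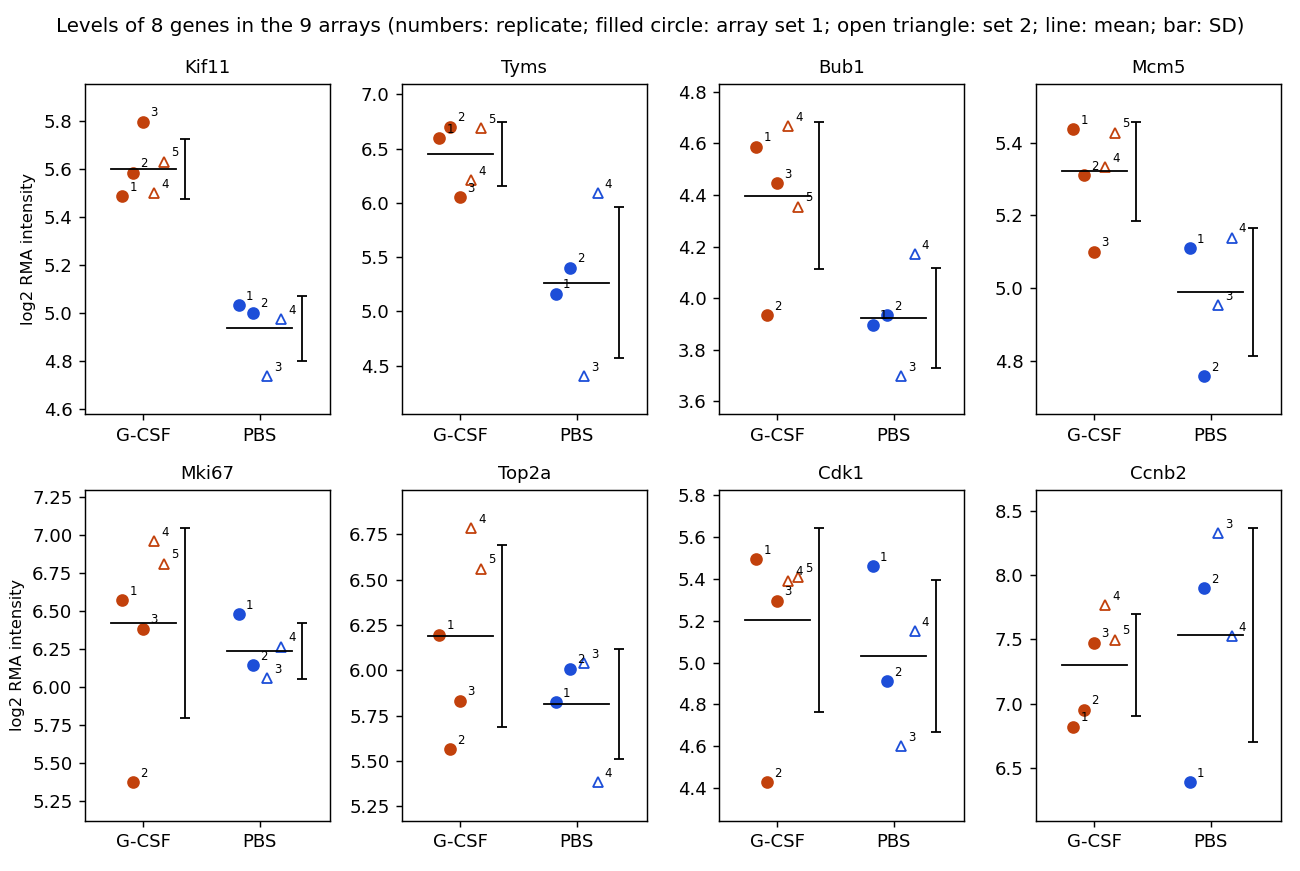
Log2 RMA intensity (vertical axis) of 8 genes in the 5 G-CSF and 4 PBS arrays, with the replicate number beside each point, filled circles for set 1, open triangles for set 2, a line at the group mean and a bar for the SD. The groups of Kif11 do not overlap, Tyms touches through PBS replicate 4, and G-CSF replicate 2 is the lowest array for Mki67 and Cdk1.

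G-CSF replicate 2 was low over the mitosis genes as a group. Averaged over the 18 genes, the level was 5.67, 5.28, 5.80, 5.93 and 5.95 in G-CSF replicates 1 to 5, against 5.39, 5.49, 5.55 and 5.53 in PBS replicates 1 to 4. Thus 4 of 5 G-CSF arrays lay above every PBS array and G-CSF replicate 2 below every PBS array. It held the lowest G-CSF value for 11 of the 18 genes, and it exceeded the PBS mean for 7 of them, against 12, 15, 15 and 16 for G-CSF replicates 1, 3, 4 and 5. The median change of the mitosis genes was 0.25, with 15 of 18 above 0, and it was 0.38 without G-CSF replicate 2, when 0 of the 38 genes passed. The median was 0.13 within set 1, which holds that array, and 0.51 within set 2, where 2 arrays stand against 2, and the difference between sets was not tested.

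Between the sets, 12 of the 18 mitosis genes kept the sign of their change and 6 did not (Top2a, Cdk1, Mki67, Cdc20, Foxm1 and Kif20a). Of those described above, Mki67 was at -0.20 in set 1 and 0.72 in set 2, Top2a at -0.05 and 0.96, and Cdk1 at -0.11 and 0.52, none with a call.

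The remaining mitosis genes had changes between -0.23 and 0.38. Ube2c, the ubiquitin-conjugating enzyme of the anaphase-promoting complex, was at 6.43 in G-CSF replicate 2 and at 7.46 to 7.77 in the other G-CSF arrays, against 6.69 to 7.33 in PBS arrays (change 0.38, adjusted p = 0.793). Plk1, the Polo kinase, had a change of 0.34, and G-CSF arrays spread from 4.45 (replicate 2) to 6.27 (replicate 3), against 4.94 to 5.72 in PBS. Ccna2 (cyclin A2), Aurka (a kinase of spindle poles), its activator Tpx2 and Birc5 (survivin, a partner of Aurkb) were at 0.27, 0.24, 0.22 and 0.17, and Foxm1 (a transcription factor for mitosis genes) was at 0.06. Below 0 were Kif20a (a kinesin of cell division) and Cdc20 (an activator of the anaphase-promoting complex), both at -0.06, and Ccnb2 (cyclin B2) at -0.23. Ccnb2 was at 6.82, 6.95, 7.47, 7.77 and 7.50 in G-CSF arrays, against 6.38, 7.90, 8.33 and 7.53 in PBS arrays, the widest PBS range among the mitosis genes, which enclosed the G-CSF arrays.

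Promoters of the mitosis genes are known for the cell cycle genes homology region (CHR), the motif TTTGAA that the B-Myb and DREAM complexes bind, and for CCAAT boxes bound by NF-Y, while replication genes are known for E2F sites. RefSeq promoter windows (GRCm38.p6, 250 bases before to 50 after the start of a transcript) matched 31 of the 40 listed genes by symbol, with 35 windows. Matches were counted on both strands, and for E2F the letters TTTCCCGC, TTTCGCGC, TTTGCCGC and TTTGGCGC were searched. CHR letters stood in 10 of 14 mitosis windows (71.4%), 1 of 10 replication windows and none of the 6 windows of G1 genes or the 5 of CDK inhibitors, against 17.9% of all 32851 windows. E2F letters stood in 5 of 10 replication windows (50%) and 1 of 14 mitosis windows (7.14%), against 2.26% of all windows. CCAAT stood in 13 of 14 mitosis windows and 8 of 10 replication windows, against 37.4% of all.

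The 5 promoter windows below, read 5′ to 3′ along the gene with matched letters in capitals, show what the gene that passed (Kif11), 2 mitosis genes with no call in either direction (Cdk1 and Ccnb2) and the replication genes Mcm5 and Tyms carry. Kif11 lies at chr19:37376132-37376431 (+ strand), Cdk1 at chr10:69352863-69353162 (- strand), Ccnb2 at chr9:70421505-70421804 (- strand), Mcm5 at chr8:75109259-75109558 (+ strand) and Tyms at chr5:30073576-30073875 (- strand), all in GRCm38.p6.
Kif11: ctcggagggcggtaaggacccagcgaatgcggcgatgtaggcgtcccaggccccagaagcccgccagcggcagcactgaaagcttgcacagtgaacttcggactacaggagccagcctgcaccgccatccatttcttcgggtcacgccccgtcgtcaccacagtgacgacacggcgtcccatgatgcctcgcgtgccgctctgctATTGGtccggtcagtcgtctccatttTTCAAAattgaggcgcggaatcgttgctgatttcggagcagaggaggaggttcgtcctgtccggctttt
Cdk1: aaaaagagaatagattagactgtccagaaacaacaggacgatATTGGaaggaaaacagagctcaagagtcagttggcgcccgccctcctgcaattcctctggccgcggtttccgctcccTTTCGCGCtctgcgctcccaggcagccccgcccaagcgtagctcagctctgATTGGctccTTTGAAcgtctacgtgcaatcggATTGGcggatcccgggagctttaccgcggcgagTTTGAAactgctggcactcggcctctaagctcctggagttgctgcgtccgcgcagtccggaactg
Ccnb2: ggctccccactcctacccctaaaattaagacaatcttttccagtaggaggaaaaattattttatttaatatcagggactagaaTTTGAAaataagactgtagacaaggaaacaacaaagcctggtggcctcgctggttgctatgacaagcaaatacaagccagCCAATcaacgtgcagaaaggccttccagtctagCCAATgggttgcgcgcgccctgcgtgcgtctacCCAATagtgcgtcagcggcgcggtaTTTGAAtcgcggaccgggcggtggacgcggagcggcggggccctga
Mcm5: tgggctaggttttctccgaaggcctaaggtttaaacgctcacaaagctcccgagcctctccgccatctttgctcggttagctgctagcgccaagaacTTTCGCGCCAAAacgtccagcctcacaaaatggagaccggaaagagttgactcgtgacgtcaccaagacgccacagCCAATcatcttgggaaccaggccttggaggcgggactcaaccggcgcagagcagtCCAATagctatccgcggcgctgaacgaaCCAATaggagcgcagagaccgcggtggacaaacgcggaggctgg
Tyms: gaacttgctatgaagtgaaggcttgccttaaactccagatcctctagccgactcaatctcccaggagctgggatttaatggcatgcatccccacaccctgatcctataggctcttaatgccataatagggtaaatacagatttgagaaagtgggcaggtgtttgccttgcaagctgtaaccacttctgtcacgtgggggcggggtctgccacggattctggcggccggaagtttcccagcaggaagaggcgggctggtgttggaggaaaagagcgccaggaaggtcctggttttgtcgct

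Kif11 held CHR letters beginning 19 bases before the start and a CCAAT box 45 bases before it, both on the opposite strand. Cdk1 held CHR letters at 71 and 15 bases before the start, with CCAAT boxes at 208, 80 and 48 and E2F letters at 131. Ccnb2 had 3 CCAAT boxes, at 87, 54 and 21 bases before the start, and CHR letters 167 bases before and 4 bases after it. In Mcm5, matches to E2F letters on opposite strands overlapped at 153 and 149 bases before the start, and there were 3 CCAAT boxes. The Tyms window held no match to these letters. A match describes the letters of the window and does not show that a factor binds there. CHR and CCAAT letters stood before genes whose changes were 0.67 (Kif11), 0.17 (Cdk1) and -0.23 (Ccnb2). Among the measured mitosis genes with a window, the 10 with CHR letters had changes of -0.23 to 0.67 (median 0.28). The 3 without had changes of 0.17 to 0.47, with a higher median of 0.41. Among the measured replication genes with a window, the median was 0.27 for the 5 with E2F letters and 0.21 for the 4 without. These differences were not tested.

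Among the replication genes, 0 of 10 passed, 9 of 10 changes lay above 0 and the median change was 0.21 (0.08 without PBS replicate 3). Tyms, thymidylate synthase, which makes the thymidine nucleotide for DNA, was at 6.60, 6.70, 6.05, 6.21 and 6.69 in G-CSF arrays, against 5.16, 5.40, 4.40 and 6.09 in PBS arrays. PBS replicate 4 reached the lowest G-CSF array and the other PBS arrays stayed below all of them. Tyms averaged 6.45 ± 0.30 in G-CSF (SD, n = 5) and 5.26 ± 0.70 in PBS (n = 4), with a change of 1.19 (SE 0.28, 95% interval 0.57 to 1.80) that did not pass over all probe sets (limma adjusted p = 0.0642). It passed with array weights (1.04, adjusted p = 0.0433) and without PBS replicate 4 (1.46, adjusted p = 0.0152). The change was 1.17 in set 1 and 1.20 in set 2.

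The MCM genes encode the ring of 6 subunits that unwinds DNA, and their changes had both signs. Mcm5 was at 5.44, 5.31, 5.10, 5.33 and 5.43 in G-CSF and 5.11, 4.76, 4.95 and 5.14 in PBS. G-CSF replicate 3 was the array of Mcm5 within the PBS range (change 0.33, 95% interval 0.02 to 0.64, adjusted p = 0.471). Mcm6 was at 6.59, 6.41, 6.10, 6.55 and 6.67 in G-CSF and 6.20, 6.04, 5.68 and 6.86 in PBS, where replicate 4 was the highest of all 9 arrays (change 0.27, adjusted p = 0.863; 0.49 without that array and 0.10 without PBS replicate 3). Mcm2 lay on the other side at -0.26, with 5.51, 5.33, 5.75, 6.31 and 6.22 in G-CSF and 5.92, 5.95, 6.14 and 6.31 in PBS, so that G-CSF replicates 1 to 3 were below all PBS arrays and replicates 4 and 5 were not. Mcm7, Mcm4 and Mcm3 were at 0.11, 0.09 and 0.05. No helicase subunit passed.

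Cdc6, which loads the helicase on DNA, was at 5.46, 5.37, 4.94, 4.92 and 5.01 in G-CSF and 5.29, 4.21, 4.97 and 4.25 in PBS (change 0.46, 95% interval -0.05 to 0.97, adjusted p = 0.627). PBS replicates 2 and 4 lay well below the other 7 arrays for Cdc6. Rrm2, the small subunit of ribonucleotide reductase, was at 0.26 (adjusted p = 0.895). Pcna, the sliding clamp of the polymerases, was at 9.12, 9.13, 8.93, 9.33 and 9.35 in G-CSF and 9.17, 8.81, 8.57 and 9.53 in PBS (change 0.15, 95% interval -0.27 to 0.57, adjusted p = 0.944). PBS arrays enclosed the G-CSF arrays on both sides. Pcna is read by 2 probe sets that gave nearly the same values on every array (changes 0.15 and 0.16), so they are not independent measurements.

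**Figure D3:**
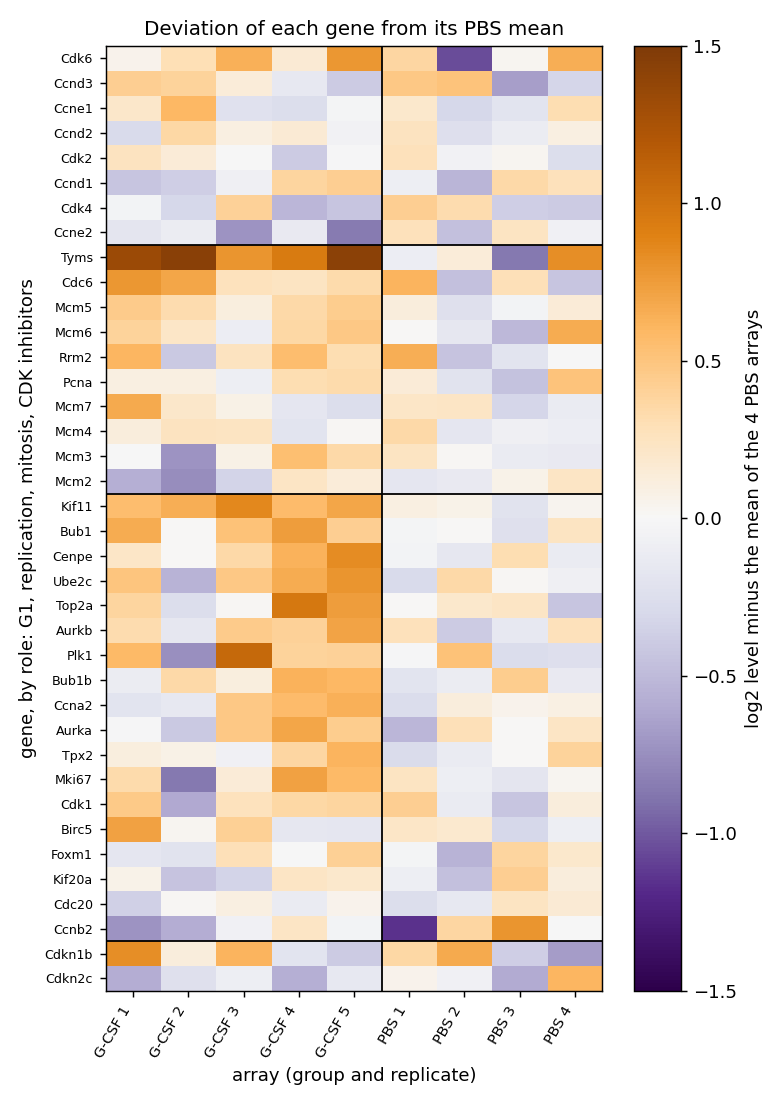
Level of each gene on each array minus the mean of the 4 PBS arrays (colour, log2 units), with G-CSF arrays left of the vertical line and genes grouped by role. The rows of Kif11, Tyms, Mcm5, Cdc6, Bub1, Cenpe and Cdk6 are above their PBS mean in all 5 G-CSF arrays. The G-CSF replicate 2 column is below the PBS mean for 11 of the 18 mitosis genes.

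The G1 cyclins and kinases had no common direction, with 4 of 8 changes above 0, a median of 0.02 and 0 calls. Ccne2 (cyclin E2), which starts S phase with Cdk2, was at 4.77, 4.83, 4.22, 4.81 and 4.10 in G-CSF and 5.23, 4.49, 5.19 and 4.88 in PBS. Its groups overlapped through PBS replicate 2 (change -0.40, 95% interval -0.86 to 0.06, adjusted p = 0.659). Cdk6, a partner of the D-type cyclins, was at 6.54, 6.78, 7.12, 6.65 and 7.27 in G-CSF and 6.85, 5.44, 6.52 and 7.14 in PBS. Its change of 0.39 (95% interval -0.26 to 1.03, adjusted p = 0.840) was 0.04 without PBS replicate 2, the low array. Cdk4, the other such kinase, was at 8.31, 8.04, 8.76, 7.83 and 7.92 in G-CSF and 8.79, 8.68, 7.98 and 7.96 in PBS, with the groups interleaved (change -0.18, adjusted p = 0.947).

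The D-type cyclins had changes near 0. Ccnd1 (cyclin D1) was at 5.06, 5.12, 5.41, 5.86 and 5.91 in G-CSF and 5.39, 4.95, 5.83 and 5.76 in PBS. The higher arrays of Ccnd1 were those of set 2 in both groups (change -0.01, 95% interval -0.52 to 0.50, adjusted p = 0.998). Ccnd2 had a change of 0.05 (95% interval -0.31 to 0.41) with 7.64, 8.28, 8.03, 8.08 and 7.87 in G-CSF arrays and 8.18, 7.69, 7.81 and 8.03 in PBS arrays, which interleaved. Ccnd3 was at 0.08, Ccne1 (cyclin E1) at 0.06 and Cdk2 at -0.01. The intervals of the D-type cyclins reached from -0.52 (Ccnd1) to 0.66 (Ccnd3), and with 9 arrays a difference within a gene's interval was not excluded.

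Of the CDK inhibitors, Cdkn2c (p18), which binds Cdk4 and Cdk6, was at 5.23, 5.59, 5.73, 5.24 and 5.66 in G-CSF and 5.86, 5.74, 5.22 and 6.42 in PBS. PBS replicate 3 was the lowest array of Cdkn2c and the other PBS arrays lay above all G-CSF arrays (change -0.32, 95% interval -0.80 to 0.16, adjusted p = 0.800; -0.52 without PBS replicate 3, adjusted p = 0.327). Cdkn1b (p27), which restrains Cdk2 in resting cells, was at 8.74, 8.04, 8.54, 7.72 and 7.52 in G-CSF and 8.28, 8.59, 7.55 and 7.25 in PBS. Set 1 arrays were higher than set 2 arrays in both groups (change 0.19, 95% interval -0.48 to 0.87, adjusted p = 0.962). The other Cdkn1b probe set gave -0.01.

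Other genes of these pathways were read from lists of the same roles. Of 46 further replication genes, 0 rose, 1 fell and 45 did not pass, with a median change of 0.03. Over the whole array 191 of 21789 probe sets fell. The gene that fell was Orc6, a subunit of the origin recognition complex, at 6.19, 6.33, 5.84, 6.01 and 6.27 in G-CSF arrays, against 7.07, 7.06, 6.59 and 6.80 in PBS arrays. All G-CSF arrays of Orc6 lay below all PBS arrays (change -0.75, 95% interval -1.10 to -0.40, limma adjusted p = 0.0374). That order held for 1 of the 46 genes and for 2.46% of all probe sets. The Orc6 call held without G-CSF replicate 2 or PBS replicate 3, and was lost without any 1 of the other 7 arrays (adjusted p up to 0.118). With the set as a block the Orc6 call held too (limma adjusted p = 0.0166), but that p may be too small, as for Kif11. Tk1, the thymidine kinase that salvages thymidine, was at 7.33, 8.70, 8.11, 7.97 and 8.13 in G-CSF and 7.46, 7.03, 7.43 and 6.82 in PBS. G-CSF replicate 1 was the Tk1 array within the PBS range (change 0.86, adjusted p = 0.135, and 0.0426 without that array). Rrm1, the large subunit of ribonucleotide reductase, was at 0.58 (adjusted p = 0.455), and Pole, a replicative polymerase, at -0.42 (adjusted p = 0.479).

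Of 58 further mitosis genes, 0 passed, 44 changes lay above 0 and the median was 0.14. At an unadjusted p under 0.05 there were 3, all higher in G-CSF, a share near the 4.41% of all probe sets. Ccnf (cyclin F) was at 4.93, 4.60, 4.47, 4.68 and 4.72 in G-CSF, against 4.16, 4.12, 4.39 and 4.32 in PBS. The groups of Ccnf did not overlap (change 0.43, adjusted p = 0.232). All G-CSF arrays lay above all PBS arrays for 2 of the 58 genes and for 2.18% of all probe sets. Cks1b, a CDK-binding subunit, was at 0.62 (adjusted p = 0.450), Ckap2, a spindle protein, at 0.38 (adjusted p = 0.534) and Cdca3 at 0.37 (adjusted p = 0.557). Of 22 E2F, pocket protein and DREAM genes, 0 passed and 9 lay above 0 (median -0.06). E2f4, an E2F that acts as a repressor in resting cells, was at 7.07, 7.78, 7.59, 7.44 and 7.48 in G-CSF and 7.95, 7.97, 7.94 and 7.77 in PBS. Of the G-CSF arrays, replicate 2 just reached the lowest PBS array for E2f4 (change -0.44, adjusted p = 0.314). The pocket proteins Rb1 and Rbl1 were at -0.36 (adjusted p = 0.769) and -0.34 (adjusted p = 0.658), and Myc at 0.65 (adjusted p = 0.619). Of 5 further CDK inhibitor genes, 0 passed: Cdkn3, a phosphatase of CDKs, was at 0.59 (adjusted p = 0.188), Cdkn2d (p19) at 0.61 (adjusted p = 0.275), Cdkn1c (p57) at -0.31 (adjusted p = 0.818) and Cdkn2a at -0.08 (adjusted p = 0.981).

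Markers of blood cells and their precursors that the sort could hold were read on the same arrays. Of all 21789 probe sets, 191 passed as lower in G-CSF and 162 (0.743%) as higher. Over 15 erythroid genes (of 20 listed) the mean level per array was 4.33 to 4.70 in G-CSF and 4.97 to 5.51 in PBS, with 15 of 15 changes below 0 and 3 passed (Car1, Rhag and Tfrc). Over 15 genes of B cell precursors (of 16 listed) it was 4.77 to 5.13 in G-CSF and 5.27 to 5.53 in PBS, with 14 of 15 below 0 and 3 passed (Cd79a, Dntt and Ebf1, the last also a gene of CAR cells). Over 20 genes of neutrophils and their precursors it was 8.06 to 8.76 in G-CSF and 7.16 to 8.52 in PBS, with 20 of 20 above 0 and 2 passed (Mmp9 and Csf3r, which mature neutrophils carry too). The neutrophil means of the groups overlapped. The lowest neutrophil mean of the G-CSF arrays was 8.06, in G-CSF replicate 2, and the highest of the PBS arrays was 8.52, in PBS replicate 2. Whether neutrophil and mitosis means go together over the 9 arrays was not tested. Array values carry no detection call, so no marker can be called absent. The part of these cells in the levels of the cell cycle genes was not tested.

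Over 18 genes of CAR cells the mean was 9.80 to 9.89 in G-CSF and 10.57 to 10.71 in PBS. Of these genes 10 fell and 0 rose, where 191 of all 21789 probe sets fell. Of 15 macrophage genes 1 fell, Vcam1, which CAR cells also express. None of 16 endothelial genes or of 12 genes of megakaryocytes and progenitors passed.

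**Figure D4:**
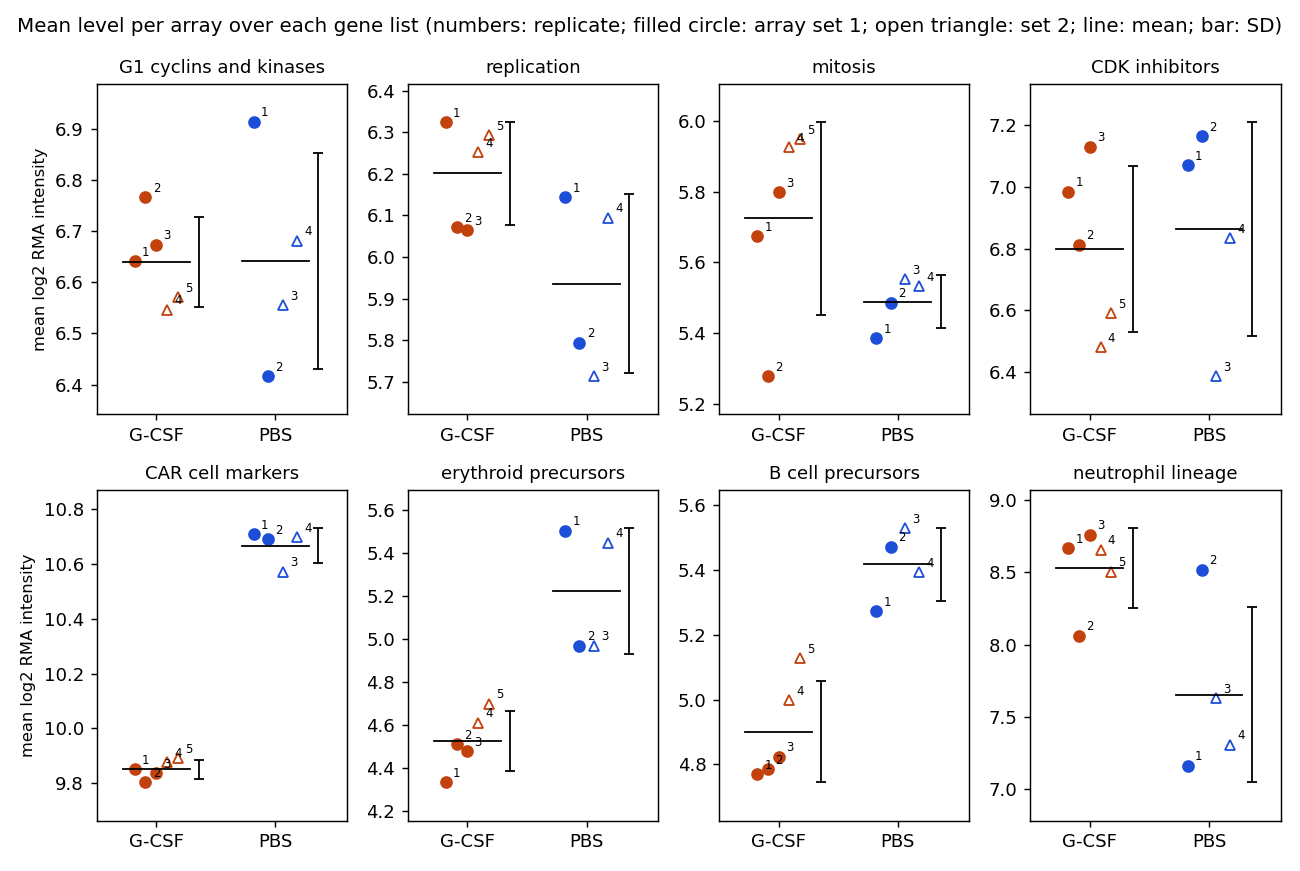
Mean log2 RMA intensity per array (vertical axis) over the genes of each role (upper row) and over marker lists of CAR cells and of blood precursors (lower row), with replicate numbers, filled circles for set 1, open triangles for set 2, a line at the group mean and a bar for the SD. In the mitosis panel 4 of 5 G-CSF arrays lie above all PBS arrays and replicate 2 below them, while the CAR cell, erythroid and B cell precursor panels separate the groups.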

How the data were processed

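RNA of sorted CAR cells was amplified and labelled with NuGEN kits and hybridised to Affymetrix Mouse Gene 1.0 ST arrays, per the labels' protocols. The submitters' processing notes name RMA and Affymetrix Expression Console for the deposited intensity values made by the authors, with no version. These values ran from 1.73 to 15673.1, a linear scale, so log2 was taken. RMA normalises between arrays, so changes are relative to the other transcripts, though the spread of the deposited log2 values still differed between arrays, and precision is limited by how many arrays there are.

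Of 35553 probe sets, 21789 carried 1 symbol in the platform table and were tested; 1621 carried several and 12143 none. For a gene with several probe sets, that with the highest mean stood for it. Groups were compared with limma 3.58.1 in R 4.3.3 (lmFit, eBayes, two-sided, 9 arrays, no covariates), with Benjamini-Hochberg adjustment over all tested probe sets and a threshold of 0.05. The steps were checked on simulated data with 50 changes of each size. Of changes of 0.5 log2 units 8% were recovered, and of 1 unit 48%. At 1.5 and 2 units the shares were 88% and 96%. Members and lists were chosen with earlier results of these data known. The text gives array values for members past the threshold, the 4 with the smallest p of each role and a set of key genes, and names the 4 genes with the smallest p of each further pathway list; other members were named to account for all. Replication-dependent histone genes were listed too, but none was analysed here. Alternatives covered features tested, dim probe sets, variance moderation, normalisation, centring, array weights, averaging of probe sets, an added constant of 16, blocks by replicate number and by array set, each set alone, G-CSF replicates 4 and 5 averaged, other thresholds, and each array left out.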

Additional observations from a re-analysis of the deposited data

Results flagged for a closer look

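In 84 groups of values searched (38 genes and the 4 role means in each treatment group), 4 arrays lay far from the others of their group by Dixon's criterion, which chance alone meets in about 1 in 20 groups. Ube2c in G-CSF replicate 2 was at 6.43, against 7.46 to 7.77 in the other G-CSF arrays. Cdk1 in the same array was at 4.43, against 5.29 to 5.49. Bub1b in PBS replicate 3 was at 5.11, against 4.49 to 4.56 in the other PBS arrays. Ccna2 in PBS replicate 1 was at 6.22, against 6.54 to 6.61. G-CSF replicate 2 was also the lowest G-CSF array for Mki67 (5.37) and Plk1 (4.45).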

How the results depend on the processing

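Of the 38 genes, 1 (Kif11) also passed under trended robust moderation, further quantile normalisation, centring, averaged probe sets, log2(value + 16) and the array set as a block. The count was 0 with all probe sets (181 probe sets changed), with brighter probe sets (24 members tested, Kif11 not among them), in set 1 alone (202 probe sets), in set 2 alone (59), with G-CSF replicates 4 and 5 averaged and at an adjusted p under 0.01 (149). It was 2 with array weights and at an adjusted p under 0.1, Tyms being added. The set block gave 598 probe sets, but the sets were drawn from these same values, so its p-values may be too small. None of the members fell under any of these settings. Orc6 lost its call with all probe sets, with the replicate block, in either set alone, with G-CSF replicates 4 and 5 averaged and at the stricter threshold. With an array left out, the counts were 0 to 1 members and 210 to 318 probe sets; the 1 was Tyms, without PBS replicate 4. The mitosis median was 0.51 in set 2 alone and the other role medians kept within their spread between arrays.

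With the replicate number as a block, 180 probe sets and 0 members passed, with Mcm3 at -0.027 and Foxm1 at -0.0245. No PBS array has the number 5, so this block took G-CSF replicate 5 out of the comparison. Mcm3 and Foxm1 had the same changes with that array left out. Arrays of the same number had deviations correlated at 0.28, 0.14, -0.28 and 0.35 for numbers 1 to 4, so the numbers were not shown to pair the arrays.

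Some genes, among them Top2a, Mcm2 and Ccnb2, took the other sign under some settings, none with a call, and the cause was not tested. Array weights gave Ccnd3 -0.17, Ccnd1 0.20, Mcm7 -0.040, Cdc20 0.014, Kif20a 0.12, Cdkn1b -0.067 and Cdkn2a 0.10. The set block gave Ccnd1 0.057. Set 1 alone gave Ccnd3 -0.18, Ccnd1 0.026, Cdk2 0.0195, Mcm3 -0.35, Top2a -0.052, Cdk1 -0.11, Mki67 -0.20, Cdc20 0.12, Kif20a 0.044 and Cdkn2a 0.12. Set 2 alone gave Ccne1 -0.20, Ccnd1 0.094, Mcm2 0.039 and Foxm1 -0.087. Averaging G-CSF replicates 4 and 5 gave Cdk2 0.045 and Mcm3 -0.051. With an array left out, changes ran from -0.028 to 0.14 for Ccnd2, -0.14 to 0.25 for Ccnd3, -0.074 to 0.17 for Ccne1, -0.19 to 0.11 for Ccnd1, -0.088 to 0.092 for Cdk2, -0.0015 to 0.32 for Pcna, -0.034 to 0.19 for Mcm7, -0.075 to 0.24 for Mcm3, -0.62 to 0.033 for Ccnb2, -0.14 to 0.021 for Cdc20, -0.12 to 0.19 for Foxm1, -0.21 to 0.086 for Kif20a, -0.028 to 0.42 for Cdkn1b and -0.18 to 0.13 for Cdkn2a.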

Other observations

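Targets of p53, the tumour suppressor that halts division through genes such as Cdkn1a, were measured as well. Of 19 genes, 0 passed and 15 changes lay above 0, with a median of 0.11. Sesn1, a stress-induced regulator of growth, was at 0.34 (adjusted p = 0.645), Plk3 at 0.39 (adjusted p = 0.830) and the death receptor gene Fas at 0.36 (adjusted p = 0.816), while Perp was at -0.24 (adjusted p = 0.777).

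A second probe set of Top2a followed the array sets and not the treatment. It was at 4.80, 4.68 and 4.36 in G-CSF replicates 1 to 3 and 3.57 and 2.91 in replicates 4 and 5, against 4.58 and 4.23 in PBS replicates 1 and 2 and 3.56 and 2.93 in replicates 3 and 4. The brighter Top2a probe set described above did not show this order. G-CSF replicates 4 and 5 were the most alike pair of arrays within a group, with an SD of their log2 differences over all probe sets of 0.28, against 0.37 to 0.67 for the other pairs.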
